A study of Mus musculus with 14 samples.

Results

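The mitochondrially encoded transcripts are the 37 genes whose symbol starts with mt- in a table of 55228 gene symbols and 14 libraries, and 26607 of those symbols had any count. They comprise 13 mRNAs, 2 ribosomal RNAs and 22 transfer RNAs, and were chosen by symbol alone. Of the 37 genes, 16 had a count in any library and 12 passed the filter on low counts, all 12 of them mRNAs. The libraries were made from cultured mouse tail epidermal cells by small-input bulk RNA sequencing. Distal cells (6 libraries) came from the region that the labels call a memory region, lying away from an earlier injury, and control cells (8 libraries) from a region labelled as having no memory. All cells carried the genotype Lrig1CreER/Rosa-TdTomato, in which the promoter of Lrig1, which is active in progenitors of the upper hair follicle, drives an inducible Cre recombinase that marks cells with a red fluorescent protein. All were taken at the time that the labels give as 8w pw1, sorted for the surface antigen Sca1 and grown for 1 week in keratinocyte medium, with treatment given as none. The library descriptions place them in 4 sets: distal set 1 (distal libraries 1 and 2), distal set 2 (distal 3 to 6), control set 1 (control 1 to 6) and control set 2 (control 7 and 8). No set holds both regions, so set and region cannot be told apart. The descriptions number the sets 1 and 2 in each region and do not state whether sets of the same number belong together. The labels do not state whether the libraries stem from different animals or cultures. The p-values therefore reflect the spread among these libraries alone, and that spread may be technical.

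Total counts were 2137934 to 4513518 in distal libraries and 4515646 to 7458872 in control libraries, and every distal library was shallower than every control library. Summed keratinocyte markers (Krt5, Krt14, Krt15, Itga6, Trp63 and Cdh1, all detected) stood at 10855 to 17427 CPM (counts scaled to a common library size) in distal and 6875 to 10466 CPM in control libraries. The 5 detected fibroblast markers of 6 summed to 2.30 to 88.7 CPM in distal and 0.535 to 241 CPM in control libraries, with Lum at 0. The single detected muscle marker of 4, Acta1, was at 0.916 to 64.3 CPM in distal and 0.932 to 5.20 CPM in control libraries. Immune, melanocyte and endothelial markers summed to at most 9.51 CPM in distal and 9.86 CPM in control libraries, with Cd3e, Dct and Cdh5 at 0, and all 3 Merkel cell markers were at 0. In bulk samples, fewer cells of a type and less RNA per cell cannot be told apart.

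Mitochondrial DNA is a small circular genome, present in many copies in each cell. Its genes encode subunits of respiratory complexes I, III, IV and V, together with the rRNAs and tRNAs of the mitochondrial ribosome, while all other respiratory subunits and every enzyme that copies, transcribes or processes this genome are nuclear. Each strand is transcribed as a long precursor that is cut mainly at the tRNAs lying between the genes, so that mRNAs from the same precursor can reach different levels through their stability. Most mitochondrial mRNAs carry a short poly(A) tail, and the libraries here were built with a method (Smart-seq2) that copies polyadenylated RNA. Pieces of mitochondrial DNA have also been inserted into nuclear chromosomes during evolution, where they are annotated as pseudogenes.

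Such pieces bear on how mitochondrial counts can be read. Among the annotated nuclear transcripts of the mouse genome (build GRCm38, GENCODE annotation), 16 matched a mitochondrial mRNA at 90% identity or more over at least 50% of their own length. Of these, 7 lie side by side on chr1:24611535-24616197, minus strand, in the same order and at the same spacing, to within 1 base, as the mitochondrial stretch chrM:6390-11042 that runs from the end of mt-Co1 into mt-Nd4. Over the aligned stretch 5 of the 7 are identical to the mitochondrial gene and 2 differ from it by a single base. The most abundant copy, Gm28437, is identical to mt-Co3, and a stretch of 60 bases (positions 363 to 422 from the start of each gene, chrM:8969-9028 plus strand and chr1:24613550-24613609 minus strand) is shown because no read from within it could be assigned to either gene by its sequence.
mt-Co3: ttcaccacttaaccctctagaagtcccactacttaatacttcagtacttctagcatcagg
Gm28437: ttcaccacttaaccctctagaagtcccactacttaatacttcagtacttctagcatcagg
The copy of the end of mt-Co1, Gm29216, differs from it by A1066T, counted from the start of mt-Co1, and the base that differs is in capitals (chrM:6390-6422 plus strand and chr1:24616156-24616188 minus strand).
mt-Co1: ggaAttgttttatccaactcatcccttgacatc
Gm29216: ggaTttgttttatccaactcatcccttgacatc
The copy of mt-Nd3, Gm28438, differs from it by T3C, counted from the start of mt-Nd3 (chrM:9459-9490 plus strand and chr1:24613088-24613119 minus strand).
mt-Nd3: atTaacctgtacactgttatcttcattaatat
Gm28438: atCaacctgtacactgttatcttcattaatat
The copy of mt-Nd4, Gm28439, ends inside the gene. The 60 bases at that point (positions 847 to 906 of mt-Nd4, chrM:11013-11072 plus strand) are shown with the part beyond the copy in capitals.
mt-Nd4: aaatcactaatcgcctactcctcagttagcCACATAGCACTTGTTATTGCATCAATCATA

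The share of each gene that a read cannot place followed from these copies. Of all windows of 75 bases in mt-Co3, 99.9% also occurred in an annotated nuclear transcript, and the share was 99.5% in mt-Co2 and mt-Atp6, 98.7% in mt-Nd4l and 97.8% in mt-Nd3. It was 61.5% in mt-Nd4, 39.8% in mt-Co1, 5.7% in mt-Nd2 and 1.7% in mt-Nd5, and 0 in mt-Nd1, mt-Nd6, mt-Cytb, mt-Atp8 and both rRNAs. mt-Atp8 lies within the stretch that matches chromosome 1 but has no annotated copy there, and the chromosome's own sequence was not analysed here. The handling of reads with more than 1 matching place is not stated in the sources used here.

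Overlaps between neighbours within the mitochondrial genome add a further limit. mt-Atp8 and mt-Atp6 share 43 bases (chrM:7927-7969) in different reading frames, shown in capitals within the end of mt-Atp8 (chrM:7917-7969 plus strand), where the capitals open with the start codon of mt-Atp6.
mt-Atp8: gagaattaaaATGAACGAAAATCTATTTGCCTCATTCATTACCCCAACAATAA
mt-Nd4l and mt-Nd4 share 7 bases. mt-Nd5 and mt-Nd6 lie on opposite strands and share 14 bases (chrM:13552-13565), so that without strand in the counting their reads could not be told apart there; whether strand was used is not stated in the sources. These 14 bases are in capitals at the end of mt-Nd5 (chrM:13542-13565 plus strand).
mt-Nd5: ttatactcaaTTAATCTCGAGTAA

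The levels of the 13 mRNAs spanned several orders of magnitude. On the scale of CPM per kilobase of gene, mt-Nd1 and mt-Co1 were the highest, at means of 11266 ± 4822 (SD, n = 6) and 6857 ± 4614 (SD, n = 6) in distal and 16015 ± 4183 (SD, n = 8) and 12841 ± 4568 (SD, n = 8) in control libraries. mt-Cytb followed at 6753 ± 3157 (SD, n = 6) in distal and 11579 ± 2765 (SD, n = 8) in control libraries. These 3 genes, which encode a subunit each of complexes I, IV and III, overlapped one another across libraries and together took 82.6% ± 1.67 (SD, n = 6) of mitochondrial mRNA counts in distal and 82.7% ± 2.65 (SD, n = 8) in control libraries. The complex I genes mt-Nd2, mt-Nd4, mt-Nd5 and mt-Nd6 came next, with mean levels per kilobase from 2118 (mt-Nd2) to 686 (mt-Nd6) in distal and from 3019 (mt-Nd2) to 1253 (mt-Nd6) in control libraries. Neighbours in this order overlapped across libraries in both regions. In control libraries the lowest mt-Co1 value (7166) lay above the highest mt-Nd2 value (3806), whereas in distal libraries the lowest mt-Co1 value (2388) lay below the highest mt-Nd2 value (3162).

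The remaining 6 mRNAs were far lower, and they are 6 consecutive mRNA genes of the circle, from mt-Co2 to mt-Nd4l. mt-Co3 led them with 49.9 ± 27.8 (SD, n = 6) CPM per kilobase in distal and 228 ± 66.0 (SD, n = 8) in control libraries. Means in distal libraries were then 35.9 for mt-Co2, 25.4 for mt-Atp8, 23.3 for mt-Nd3, 19.0 for mt-Atp6 and 2.87 for mt-Nd4l. Means in control libraries were 125 for mt-Co2, 64.0 for mt-Atp6, 29.9 for mt-Atp8, 13.7 for mt-Nd3 and 9.19 for mt-Nd4l. The lowest library for mt-Nd6 (335 CPM per kilobase, distal) lay above the highest library for any of these 6 genes (328 CPM per kilobase, mt-Co3, control), whereas neighbours among the 6 overlapped in both regions, except that in distal libraries mt-Atp6 (8.89 at the lowest) lay above mt-Nd4l (5.70 at the highest). The 5 genes with at least 97.8% of windows shared with a nuclear transcript are all among these 6, and the sixth, mt-Atp8, shares none with an annotated transcript. The part of shared reads in these levels was not tested.

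**Figure D1:**
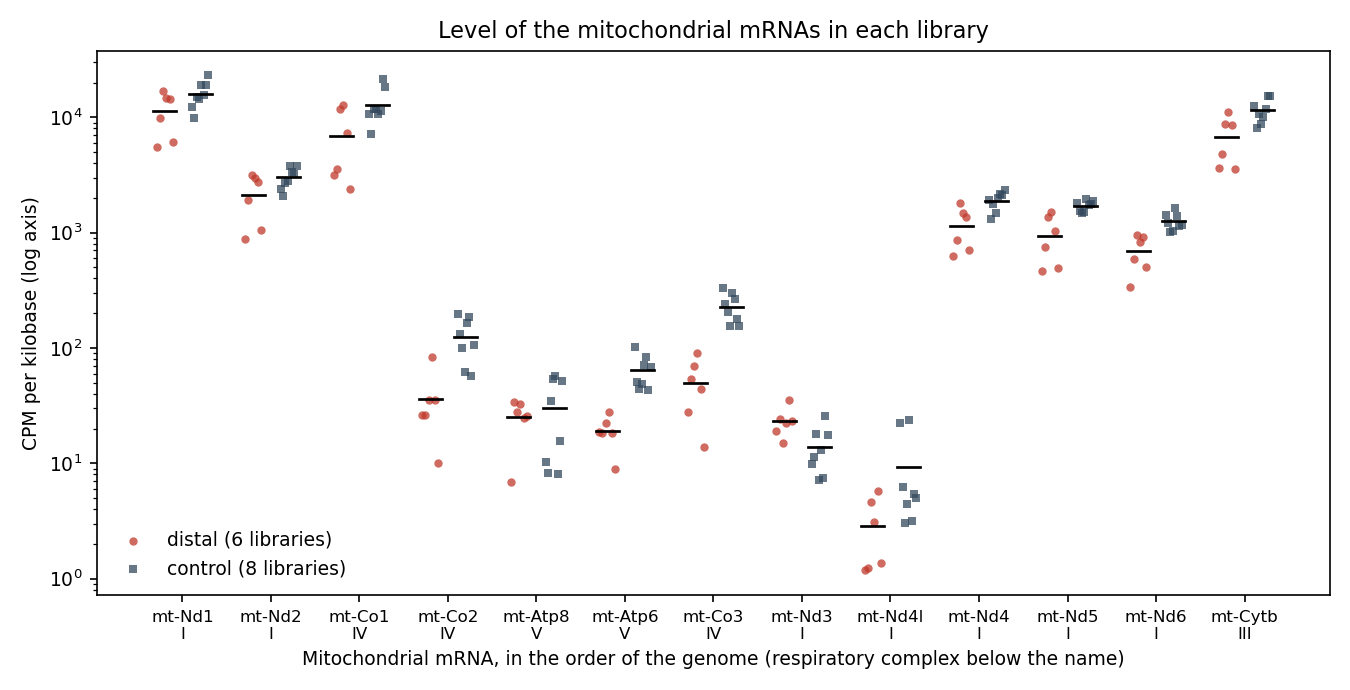
Level of each mitochondrial mRNA as CPM per kilobase on a log axis, with genes in the order of the mitochondrial genome and the respiratory complex below each name; points are libraries (6 distal, 8 control) and lines are means. The 6 genes from mt-Co2 to mt-Nd4l lie at 328 CPM per kilobase or below in every library, and the other 7 at 335 or above.

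**Figure D2:**
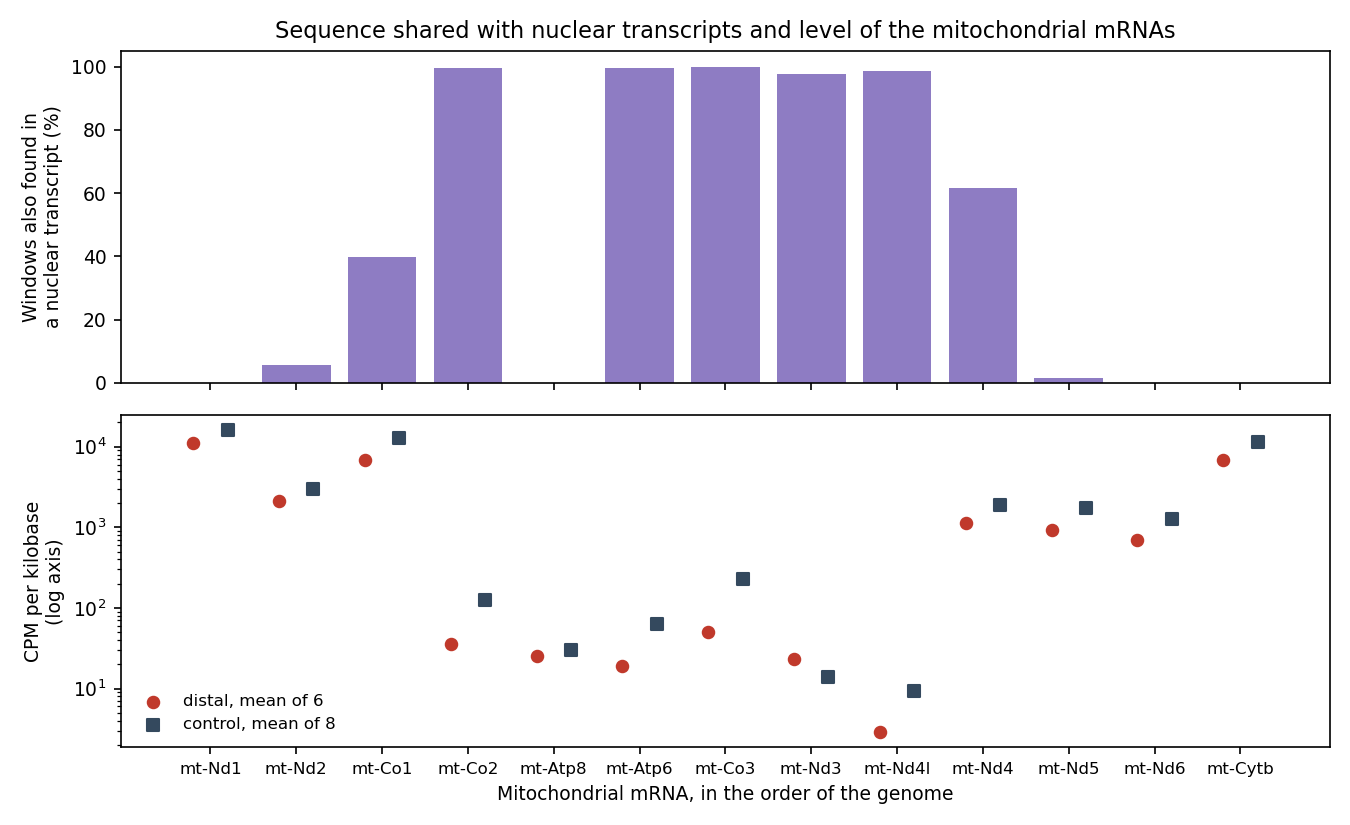
The upper panel shows the percentage of 75-base windows of each mitochondrial mRNA that also occur in an annotated nuclear transcript, and the lower panel its mean CPM per kilobase on a log axis in distal (6) and control (8) libraries. The genes at 97.8% or more lie at the bottom of the range of levels, together with mt-Atp8, at 0.

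The rRNAs and tRNAs were almost without counts. mt-Rnr1, the small ribosomal RNA, had 2 counts in distal library 4 and 1 count in control library 6 and none elsewhere, and mt-Rnr2, the large ribosomal RNA, had no count in any library. A count of 0 allows up to 3 counts, which is 0.687 to 1.21 CPM in distal and 0.447 to 0.710 CPM in control libraries; such limits cover counting error only. Of the 22 tRNAs, 20 had no count. mt-Tc had 62 counts in 7 libraries, with 0 to 2 per distal library and 0 to 21 per control library, and mt-Ty had 30 counts in 5 libraries, with 0 to 1 per distal library and 0 to 18 per control library. Any removal of ribosomal reads before counting is not stated in the sources.

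The main comparison asked which mitochondrial transcripts differed between distal and control cells. Of the 12 mRNAs tested, 8 fell in distal cells and 0 rose. They include all 3 genes of complex IV, 3 of 6 of complex I, the only one of complex III and 1 of 2 of complex V. These counts stand against a background in which 48.3% of all 11757 tested genes passed the threshold, 24.1% lower and 24.3% higher in distal libraries. The median log2 fold change was -0.82 over the 12 mitochondrial mRNAs and -0.16 over all tested genes. For mt-Atp6, mt-Co3 and mt-Nd6 every distal library lay below every control library, which held for 5.65% of all tested genes. Calls are by edgeR's quasi-likelihood test with Benjamini-Hochberg adjusted p under 0.05 over all tested genes.

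Complex IV, cytochrome c oxidase, passes electrons to oxygen, and its catalytic core is made of the products of mt-Co1, mt-Co2 and mt-Co3. mt-Co3 (chrM:8607-9390) had 10.9 CPM in the lowest, 38.3 in the median and 70.7 in the highest distal library, against 121, 174 and 257 CPM in control libraries. The regions did not overlap, and mt-Co3 fell by 2.18 ± 0.32 (SE) on the log2 scale (edgeR adjusted p = 4.1e-05). mt-Co2 (chrM:7013-7696), which carries the copper centre that receives electrons from cytochrome c, had 6.86, 21.0 and 56.7 CPM as the lowest, median and highest distal values, against 39.3, 81.7 and 134 CPM in control libraries. Only distal library 4 reached into the control range, and mt-Co2 fell by 1.78 ± 0.38 (SE; edgeR adjusted p = 0.001). mt-Co1 (chrM:5328-6872), which holds the site where oxygen is reduced, had 3690, 8327 and 19909 CPM as the lowest, median and highest distal values, against 11072, 17754 and 32867 CPM in control libraries. Distal libraries 1, 2 and 6 lay below all control libraries and the other 3 within their range. mt-Co1 fell by 0.91 ± 0.36 (SE; edgeR adjusted p = 0.045), and this call was lost when any one of 9 libraries was left out (control 3, 4, 6, 7 or 8, or distal 1, 2, 5 or 6), with log2 fold changes of -0.92 to -0.66 and edgeR adjusted p from 0.053 to 0.1. With all 14 libraries it was also lost under upper-quartile scaling (-0.78, edgeR adjusted p = 0.062) and scaling without the mitochondrial genes (-0.84, edgeR adjusted p = 0.068). The same held with no filter on low counts (-0.94, edgeR adjusted p = 0.12).

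Complex V, ATP synthase, contains the membrane subunits encoded by mt-Atp6 and mt-Atp8. mt-Atp6 (chrM:7927-8607), whose product forms part of the proton channel, had 6.05, 12.5 and 19.1 CPM as the lowest, median and highest distal values, against 29.6, 40.3 and 69.8 CPM in control libraries. The regions did not overlap, and mt-Atp6 fell by 1.73 ± 0.27 (SE; edgeR adjusted p = 5.2e-05). mt-Atp8 (chrM:7766-7969) had 1.41, 5.49 and 6.95 CPM in distal and 1.66, 5.11 and 11.6 CPM in control libraries. These values rest on 4 to 29 counts per distal and 7 to 72 per control library, overlap almost fully, and gave -0.24 ± 0.53 (SE) on the log2 scale, with an edgeR adjusted p of 0.73.

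Complex I, NADH dehydrogenase, is the entry point for electrons from NADH. Its subunits mt-Nd1 to mt-Nd6 form the proton-pumping membrane arm. mt-Nd6 (chrM:13552-14070), the only mRNA gene on the strand opposite to the other 12, had 174, 369 and 494 CPM as the lowest, median and highest distal values, against 524, 616 and 856 CPM in control libraries. The regions did not overlap, and mt-Nd6 fell by 0.87 ± 0.21 (SE; edgeR adjusted p = 0.0024). mt-Nd5 (chrM:11742-13565) had 853, 1619 and 2734 CPM in distal and 2708, 3188 and 3573 CPM in control libraries, with 5 of 6 distal libraries below all control libraries. It fell by 0.88 ± 0.24 (SE; edgeR adjusted p = 0.0055). The count of mt-Nd6 per count of mt-Nd5, its neighbour on the opposite strand, was 0.222 ± 0.0474 (SD, n = 6) in distal and 0.208 ± 0.0238 (SD, n = 8) in control libraries, a difference smaller than either spread. Since the use of strand in counting is not stated, this ratio cannot be read as a comparison of the strands. mt-Nd4 (chrM:10167-11544) had 869, 1536 and 2467 CPM in distal and 1805, 2693 and 3209 CPM in control libraries and fell by 0.73 ± 0.22 (SE; edgeR adjusted p = 0.012).

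The other genes of complex I did not pass. mt-Nd1 (chrM:2751-3707) had 5319, 11582 and 16311 CPM in distal and 9392, 14618 and 22020 CPM in control libraries, which gave -0.51 ± 0.25 (SE) on the log2 scale, with an edgeR adjusted p of 0.11. mt-Nd2 (chrM:3914-4951) had 922, 2415 and 3282 CPM in distal and 2155, 3152 and 3950 CPM in control libraries, which gave the same difference of -0.51 ± 0.26 (SE) and edgeR adjusted p of 0.11. For both, distal libraries 1, 2 and 6 lay below all control libraries and the other 3 within their range. mt-Nd3 (chrM:9459-9806) was the only tested mRNA with a higher mean in distal libraries, at 5.27, 7.94 and 12.4 CPM in distal and 2.49, 4.21 and 8.92 CPM in control libraries. These values rest on 19 to 44 counts per distal and 11 to 50 per control library, and the log2 fold change was 0.76 ± 0.37 (SE; edgeR adjusted p = 0.098). That value passed when control library 7 or distal library 3 was left out (1.04 and 0.98, edgeR adjusted p = 0.032 and 0.047). mt-Nd4l (chrM:9877-10173) had 1 to 6 counts per distal and 4 to 44 per control library and was not tested.

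Complex III carries electrons to cytochrome c, and mt-Cytb encodes its only mitochondrially encoded subunit. mt-Cytb (chrM:14145-15288) had 4108, 7647 and 12716 CPM as the lowest, median and highest distal values, against 9230, 12864 and 17621 CPM in control libraries. Distal libraries 1, 2 and 6 again lay below all control libraries. mt-Cytb fell by 0.78 ± 0.26 (SE; edgeR adjusted p = 0.019), and the call was lost without any one of these 3 libraries (log2 fold changes of -0.62 to -0.57, edgeR adjusted p of 0.053 to 0.056).

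Depth differed between the regions, and the calls changed in fits with a term or a limit for depth, or for the GC content and length of genes. Every distal library was shallower than every control library, so depth and region cannot be told apart, and the fits on depth cannot separate them. The distal libraries over 4000000 counts, 3 and 4, are both of distal set 2. They also have the highest mitochondrial shares among distal libraries (5.18% and 5.48%). The mitochondrial mRNAs tested hold 31.9% to 39.9% G and C, against a median of 49.6% over tested genes, and 5.23% of tested genes have a GC content no higher than theirs. When each library's trend of counts with GC content and length was removed, mt-Co3 (-1.41, edgeR adjusted p = 0.002) and mt-Atp6 (-0.85, edgeR adjusted p = 0.043) still fell and mt-Nd3 rose (1.87, edgeR adjusted p = 0.0011). mt-Co2 stood at -1.01 (edgeR adjusted p = 0.057), and the other 8 ranged from -0.11 (mt-Co1) to 0.88 (mt-Atp8) with no call. In that fit 8.57% of all genes were called lower and 10.4% higher, and the median was 0.04 over the 12 mRNAs and 0.03 over all genes. With only the libraries over 4000000 counts (2 distal and 8 control), mt-Co3 (-1.49, edgeR adjusted p = 0.014) and mt-Atp6 (-1.33, edgeR adjusted p = 0.043) fell, against 2.78% of all genes called lower, and the same genes were the only ones called with the total count as a covariate, against 2.89% of all genes. With counts summed per set, mt-Co3 (-1.89), mt-Atp6 (-1.47) and mt-Co2 (-1.45) fell, against 6.74% of all genes called lower. mt-Co3 and mt-Atp6 were called lower in all 32 alternatives tried. Of their windows of 75 bases, 99.9% (mt-Co3) and 99.5% (mt-Atp6) also occur in an annotated nuclear transcript. One alternative summed each gene with its annotated copies, which pools the reads split between them. In it mt-Co3 was at -1.92 (edgeR adjusted p = 2.2e-05) and mt-Atp6 at -1.26 (edgeR adjusted p = 0.00019). No alternative could bring back shared reads that may have been left uncounted, and the part of shared reads in these calls was not tested.

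**Figure D3:**
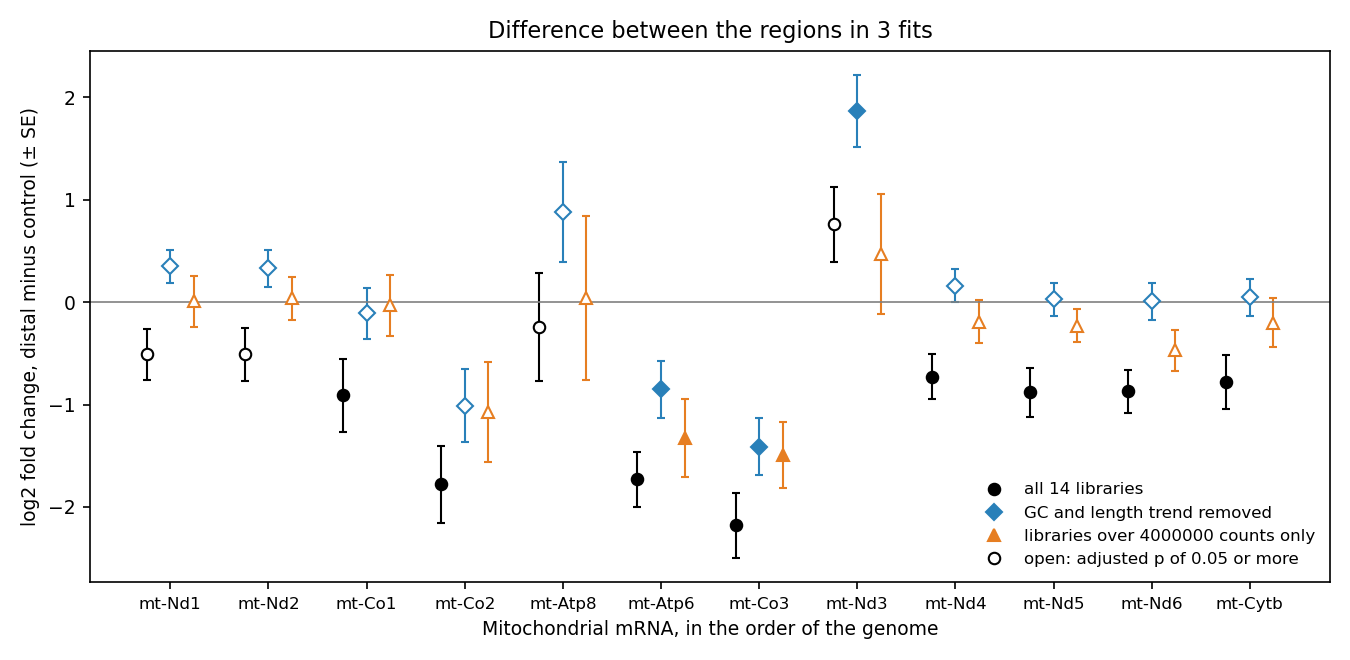
Log2 fold change, distal minus control, with its SE for the 12 tested mitochondrial mRNAs in the order of the genome, in the fit of all 14 libraries, with the GC and length trend removed, and in the 10 libraries over 4000000 counts; filled symbols passed edgeR adjusted p under 0.05. mt-Co3 and mt-Atp6 are filled and below 0 in all 3 fits, and both have at least 99.5% of windows shared with nuclear transcripts. Most others lie near 0 once the trend is removed or the shallow libraries are left out.

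The combined share of counts on the 37 genes varied most within the distal region. It was 2.04%, 2.89%, 5.18%, 5.48%, 4.45% and 1.96% in distal libraries 1 to 6 (mean 3.67% ± 1.57, SD, n = 6). It was 5.06%, 3.80%, 4.79%, 4.75%, 5.40%, 5.30%, 7.13% and 6.92% in control libraries 1 to 8 (mean 5.39% ± 1.12, SD, n = 8). Distal libraries 1, 2 and 6 lay below every control library and are also the shallowest, at 2414631, 2389341 and 2137934 counts. Distal libraries 3, 4 and 5, with 3335486 to 4513518 counts, lay within the control range of shares. The fits given above cannot separate depth from region, and the part of depth in this difference was not tested.

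Within the mitochondrial mRNA counts, complex I took 49.0% ± 5.60 (SD, n = 6) in distal and 43.1% ± 4.34 (SD, n = 8) in control libraries. Complex IV took 28.4% ± 6.12 (SD, n = 6) in distal and 33.9% ± 4.14 (SD, n = 8) in control libraries, and mt-Co1 alone took 28.2% ± 6.11 (SD, n = 6) in distal and 33.4% ± 4.32 (SD, n = 8) in control libraries. Complex III took 22.6% ± 2.09 (SD, n = 6) in distal and 22.9% ± 2.55 (SD, n = 8) in control libraries. Complex V took 0.0587% ± 0.0186 (SD, n = 6) in distal and 0.0890% ± 0.0285 (SD, n = 8) in control libraries. For mt-Co2, mt-Co3 and mt-Atp6 at least 99.5% of windows are shared with nuclear transcripts. The part of shared reads in the shares of complexes IV and V was not tested, so these need not be shares of the mRNA present. The count of mt-Co1 per count of mt-Nd1 ranged from 0.583 to 1.42 in distal (mean 0.916 ± 0.316, SD, n = 6) and from 0.898 to 1.82 in control libraries (mean 1.29 ± 0.260, SD, n = 8). All of these ranges overlapped between the regions, and the mean differences for complexes I and IV were about as large as the spread between libraries.

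**Figure D4:**
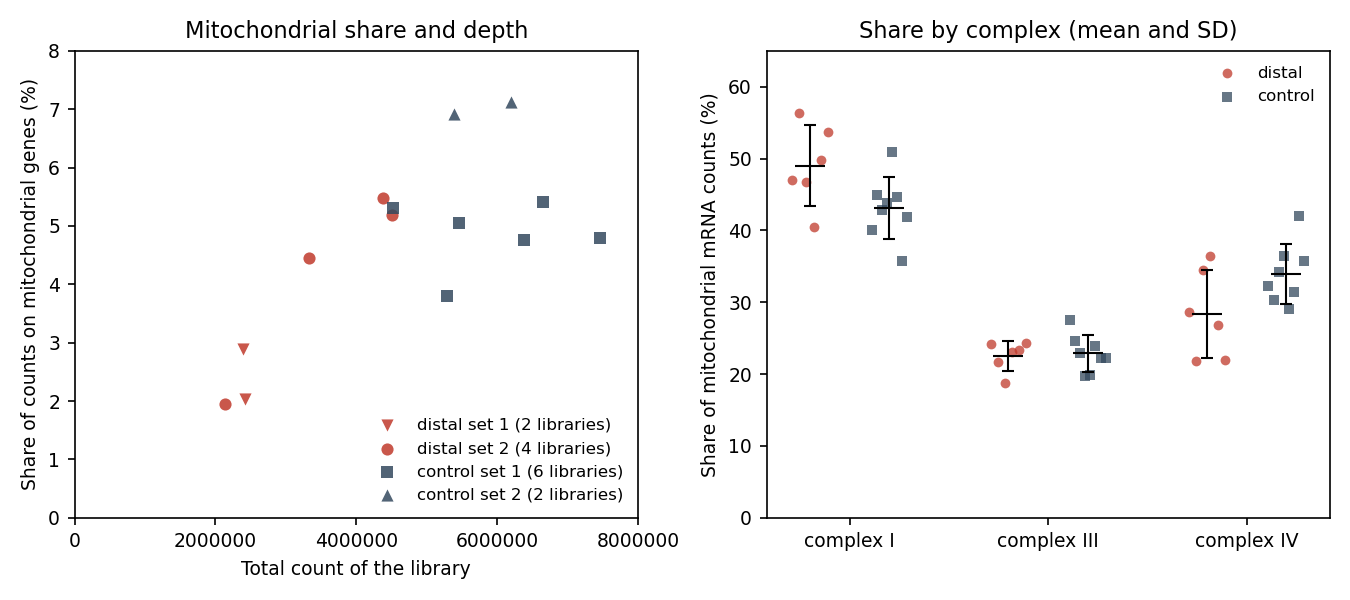
Left, share of counts on the 37 mitochondrial genes (percent) against the total count of each library, with 1 point per library and a symbol per set; right, share of mitochondrial mRNA counts by complex, with 1 point per library and the mean and SD of each region. The 3 shallowest libraries, all distal, have the lowest shares, 1.96% to 2.89%.

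Differences between sets of a region show how far such values vary where the region is the same. The mitochondrial share averaged 4.27% in distal set 2 and 2.47% in distal set 1, and 7.03% in control set 2 and 4.85% in control set 1. Between the distal sets, all 12 tested mRNAs had a positive log2 fold change (set 2 minus set 1), with a median of 0.78 over the 12 and 0.05 over all genes. It was 1.36 ± 0.46 (SE) for mt-Co1 and 0.92 ± 0.34 (SE) for mt-Cytb, against 0.09 ± 0.44 (SE) for mt-Atp6. Between the control sets mt-Co1 was at 0.90 ± 0.38 (SE) and mt-Co2 at -0.77 ± 0.54 (SE), set 2 minus set 1. edgeR called 0 of 11757 genes in either contrast, and hence no mitochondrial gene; at an unadjusted p under 0.05 edgeR counted 6 of 12 mitochondrial mRNAs between the distal sets and 1 of 12 between the control sets. DESeq2 called 16 and 40 of all genes in these contrasts, 0.136% and 0.34%, with 0 mitochondrial genes among them. The calls between regions also moved with the sets. Without distal set 1, 5 mRNAs fell (13.2% of all genes called lower), without distal set 2, 10 fell (17.0%), without control set 1, 2 fell (8.5%), and without control set 2, 6 fell (20.2%) and mt-Nd3 rose (26.1% of all genes called higher).

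The tested nuclear copies fell in distal cells. Of the 16 copies 15 are in the table, all 15 had counts, and 13 were tested. All 13 fell, with log2 fold changes of -3.00 to -1.13 and a median of -2.07, and 8 of the 13 had every distal library below every control library. The background for these counts is the 24.1% of all genes called lower and the 5.65% without overlap. Some copies had few counts in distal libraries. Gm11512, at -3.00, had 0 to 4 per distal and 12 to 43 per control library. Gm11407 had 0 to 6 and 2 to 62, and Gm4076 1 to 10 and 19 to 76. Gm11512 and Gm11407 could pass the filter on low counts only through control libraries, so their fall was largely set in advance. Gm11512 and Gm4076 are among the copies without overlap. Gm28437, the copy of mt-Co3 (chr1:24613189-24613971), had 20.6, 45.7 and 98.7 CPM as the lowest, median and highest distal values, against 139.9, 197 and 257 CPM in control libraries. It fell by 1.83 ± 0.28 (SE; edgeR adjusted p = 6e-05). Gm29216, the copy of the end of mt-Co1 (chr1:24615706-24616197), had 9.28, 22.4 and 32.1 CPM in distal and 64.5, 89.8 and 129.9 CPM in control libraries and fell by 2.14 ± 0.26 (SE; edgeR adjusted p = 7.2e-06). Gm13340, a full-length copy of mt-Co1 with 97.6% identity (chr2:22588103-22589647), had 7.67, 13.4 and 24.7 CPM in distal and 58.2, 79.2 and 113 CPM in control libraries and fell by 2.37 ± 0.26 (SE; edgeR adjusted p = 3.2e-06). Gm10925, the copy of mt-Atp6 (chr1:24613974-24614651), had 13.3, 33.6 and 44.1 CPM in distal and 44.1, 66.7 and 101 CPM in control libraries and fell by 1.13 ± 0.26 (SE; edgeR adjusted p = 0.0019).

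Of the 5 pairs in which gene and copy are identical where they align, 3 had counts on both sides at like levels. Shares of a pair are given here over the pooled counts of a region. Gm28437 held 58.2% of the counts of the pair with mt-Co3 in distal and 52.6% in control libraries. Gm10925 held 70.6% and 61.3% of the pair with mt-Atp6 in distal and control libraries, and Gm28661 held 51.4% and 44.7% of the pair with mt-Co2. Gm10222 held 74.3% of the pair with mt-Nd4l in distal and 77.3% in control libraries, with 142 counts of mt-Nd4l over all libraries. For mt-Nd4, of which 61.5% of windows are shared, its identical copy Gm28439 held 0.541% of the pair's counts in distal and 1.38% in control libraries. With each mitochondrial gene summed with its copies, 9 of 13 mRNAs fell and 0 rose, against 20.9% of all genes called lower. mt-Co3 was then at -1.92, mt-Co2 at -1.52, mt-Atp6 at -1.26 and mt-Nd4l, which became testable, at -1.82. The 8 mRNAs with fewer than 95% of windows shared had a median log2 fold change of -0.75, and the 4 tested with more had one of -1.76; with the GC and length trend removed the medians were 0.10 and -0.93. One of these 4, mt-Nd3, lay on the other side of 0, at 0.76 and, with the trend removed, 1.87. The 8 include mt-Atp8, which lies within the stretch that matches chromosome 1. Its share covers annotated transcripts only, so its place among the 8 is uncertain. With that trend removed 7 of 13 copies fell (8.57% of all genes called lower), with counts summed per set 10 of 14 (6.74%), with libraries over 4000000 counts 6 of 14 (2.78%), without control set 1 5 of 12 (8.5%) and with the total count as a covariate 3 of 13 (2.89%). How reads were divided between identical sequences, and whether the copies are transcribed, was not tested.

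**Figure D5:**
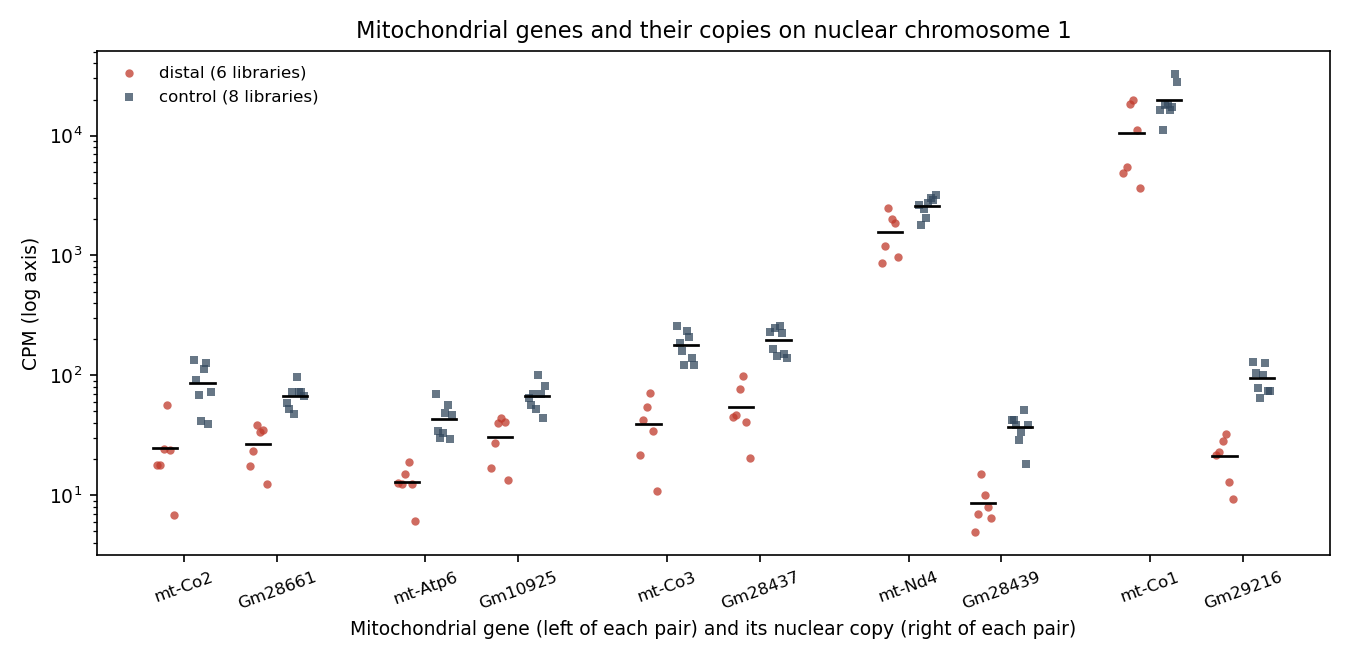
CPM on a log axis of 5 mitochondrial genes (left of each pair) and their copies on nuclear chromosome 1 (right of each pair) in 6 distal and 8 control libraries, with lines at the means. The distal mean lies below the control mean for each gene shown, and copy and gene are at like levels for mt-Co2, mt-Atp6 and mt-Co3 but not for mt-Nd4 and mt-Co1.

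Nuclear genes whose products copy, transcribe, cut, stabilise and modify mitochondrial RNA showed no common direction. Of 64 listed genes 63 were matched and 59 tested, of which 17 rose and 17 fell, against 24.3% and 24.1% of all genes, with a median log2 fold change of -0.06. The counts were 11 and 6 with counts summed per set (12.5% and 6.74% of all genes) and 8 and 4 with the GC and length trend removed (10.4% and 8.57%). In either direction 6 were called with the total count as a covariate (8.1% of all genes), 4 in libraries over 4000000 counts (8.89%), 14 without control set 1 (18.0%) and 22 without distal set 1 (32.5%), against 17 with counts summed per set (19.2%) and 12 with the trend removed (18.9%). Among 8 transcription genes 1 rose and 2 fell. Polrmt, the mitochondrial RNA polymerase, had 22.5, 31.7 and 35.5 CPM as the lowest, median and highest distal values, against 8.35, 12.7 and 16.9 CPM in control libraries. The regions did not overlap and Polrmt rose by 1.28 ± 0.22 (SE; edgeR adjusted p = 0.00019), but was at 0.18 with the GC and length trend removed (edgeR adjusted p = 0.53). Tfam, which packages mitochondrial DNA and opens its promoters, had 30.7, 38.0 and 46.5 CPM in distal and 37.5, 55.1 and 74.1 CPM in control libraries and fell by 0.58 ± 0.18 (SE; edgeR adjusted p = 0.011). The elongation factor gene Tefm fell by 1.04 ± 0.24 (SE; edgeR adjusted p = 0.002), and the initiation factor gene Tfb2m was at -0.50 ± 0.39 (SE; edgeR adjusted p = 0.3). With the trend removed Tfam (0.12), Tefm (-0.49) and Tfb2m (0.18) were not called. The call for Tfam was also lost when any one of control libraries 6 or 8 or distal libraries 1, 2 or 6 was left out, with log2 fold changes of -0.49 to -0.43. With the total count as a covariate and in libraries over 4000000 counts, Polrmt (1.06 and 0.97, edgeR adjusted p = 0.12 and 0.091), Tefm (-0.49 and -0.58) and Tfam (-0.42 and -0.41) were not called. Without control set 1 and with counts summed per set, Tefm (-0.73 and -0.81) and Tfam (-0.51 and -0.45) were not called.

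Genes of RNA stability and polyadenylation fell in 8 of 12 cases and rose in 1, against 24.1% and 24.3% of all genes. With counts summed per set 3 fell and 1 rose, against 6.74% and 12.5% of all genes. Lrpprc and Slirp form a complex that stabilises mitochondrial mRNAs and keeps them polyadenylated. Slirp had 83.2, 109 and 125 CPM as the lowest, median and highest distal values, against 137, 208 and 338 CPM in control libraries, and fell by 1.03 ± 0.19 (SE; edgeR adjusted p = 0.00025). Lrpprc had 26.0, 30.7 and 47.6 CPM in distal and 39.8, 58.4 and 70.8 CPM in control libraries and fell by 0.76 ± 0.19 (SE; edgeR adjusted p = 0.0027). Fastkd2, whose human counterpart binds the large mitochondrial ribosomal RNA, fell by 1.38 ± 0.22 (SE; edgeR adjusted p = 6.3e-05), and Grsf1, an RNA granule protein gene, fell by 0.96 ± 0.18 (SE; edgeR adjusted p = 0.00031). Fastk, whose product is needed for mt-Nd6 mRNA, was the riser, at 31.0, 37.8 and 47.8 CPM in distal and 6.52, 13.5 and 17.0 CPM in control libraries, and rose by 1.60 ± 0.21 (SE; edgeR adjusted p = 1.3e-05). With the GC and length trend removed 2 genes of this list rose and 2 fell, against 10.4% and 8.57% of all genes: Grsf1 (-0.98) still fell and Fastk (0.55) rose, and Fastkd2 (-0.52), Slirp (-0.40) and Lrpprc (-0.35) were not called. Slirp and Lrpprc also lost their calls with counts summed per set (-0.66 and -0.57, edgeR adjusted p = 0.13 and 0.14), without control set 1 (-0.46 and -0.53, edgeR adjusted p = 0.16 and 0.23) and in libraries over 4000000 counts (-0.89 and -0.88, edgeR adjusted p = 0.074 and 0.058). Grsf1 lost its call with the total count as a covariate (-0.41, edgeR adjusted p = 0.33) and in libraries over 4000000 counts (-0.55, edgeR adjusted p = 0.16), and Fastkd2 in the same libraries (-1.0, edgeR adjusted p = 0.059).

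The remaining lists are small, and their counts stand against 24.3% of all genes called higher and 24.1% called lower. Of 10 genes of DNA replication and packaging 4 rose and 1 fell. Atad3a, a membrane protein gene linked to the packaging of mitochondrial DNA, rose by 1.23 ± 0.17 (SE; edgeR adjusted p = 1.9e-05), and Ssbp1, the single-strand DNA binding protein gene, fell by 1.08 ± 0.17 (SE; edgeR adjusted p = 6.6e-05). With the trend removed they were at 0.38 for Atad3a and -0.31 for Ssbp1, with no call. Atad3a was also not called with the total count as a covariate (0.87, edgeR adjusted p = 0.075). Of 16 genes of RNA modification 6 rose and 2 fell, and Pus1, a pseudouridine synthase gene, rose by 1.49 ± 0.19 (SE; edgeR adjusted p = 9.4e-06) and still rose with the trend removed (0.71, edgeR adjusted p = 0.0056). Of 7 genes of RNA cutting 3 rose and 2 fell, and of 6 nuclear regulators 2 rose and 2 fell. With the trend removed, 10.4% of all genes were called higher and 8.57% lower. In that fit 2 genes of DNA replication and packaging rose and 0 fell, and 4 of RNA modification rose and 1 fell. Of 6 genes of RNA cutting then tested 0 rose and 1 fell, and no nuclear regulator was called.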

How the data were processed

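The table that the authors deposited holds raw, unnormalised counts by gene symbol for 14 libraries made with Smart-seq2 cDNA and Nextera XT, per the labels' protocols. The submitters' processing notes name HISAT2, featureCounts and the build mm10/GRCm38. The strand setting, the treatment of reads that match several places and any removal of ribosomal reads are not given in the sources used here.

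Tests used edgeR 4.0.16 under R 4.3.3 (TMM scaling, filterByExpr, robust quasi-likelihood F test, two-sided) on all 14 libraries and all 11757 tested genes, and a gene was called where its Benjamini-Hochberg adjusted p was under 0.05. A log2 fold change is given as distal minus control, with an SE equal to its size over the root of the F statistic. CPM uses TMM-scaled totals. For contrasts between sets the model had a term for each of the 4 sets. Library totals ranged from 2137934 to 7458872. Simulated counts with 200 changed genes served to test the code. No 2 libraries of a set agreed within sampling noise (23 pairs, with 6.83 to 40.0 as chi-square over its degrees of freedom), and each was kept as a sample. This check cannot show that libraries stem from different animals or cultures.

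Positions, GC content and length came from the GENCODE annotation and transcripts of GRCm38; 97.6% of symbols with a count had a GC value. The trend was fitted in each library with natural splines (4 degrees of freedom) of GC content and log2 length and entered as offsets. Nuclear copies were found with blastn 2.17.0 among annotated transcripts (at least 90% identity over at least 50% of the transcript), since no genome sequence was used here. Alternatives were DESeq2 1.42.0, limma-voom (limma 3.58.1), other scalings and filters, thinned counts, a replicate block, covariates, counts summed per set, and leaving out each library or set; the libraries over 4000000 counts and the sums with nuclear copies were added after the data were seen.

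The members, lists and tests were chosen with earlier results of these data known. Named genes are all 13 mRNAs and both rRNAs whatever their values; in the list of nuclear genes for mitochondrial expression, the 8 with the smallest p and Tfam, Polrmt, Tfb2m, Lrpprc, Slirp and Tefm; and the 4 nuclear copies with the most counts. mt-Tc and mt-Ty, and the copies Gm28438, Gm28439, Gm28661, Gm10222, Gm11512, Gm11407 and Gm4076, were named after their values were seen. The listed gene Fastkd4 was not matched to a symbol of the table.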

Additional observations from a re-analysis of the deposited data

Results flagged for a closer look

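Of 30 groups of library values checked for a single sample far from the others, 2 had one, about as many as chance gives at 1 in 20. Distal library 4 had 56.7 CPM of mt-Co2, far above the other 5 distal libraries at 6.86 to 24.1 CPM. Distal library 1 had 1.41 CPM of mt-Atp8, from 4 counts, far below the other 5 distal libraries at 5.08 to 6.95 CPM.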

How the results depend on the processing

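Of 12 mitochondrial mRNAs 8 passed in all 14 libraries, and the number was 6 to 9 when each library was left out in turn. It was 3 with counts summed per set, 3 with the GC and length trend removed (1 higher, 2 lower), 2 with the total count as a covariate, 2 without control set 1, 5 without distal set 1 and 2 in libraries over 4000000 counts. Of the nuclear genes for mitochondrial expression 34 passed, with 27 to 34 when each library was left out, and 17, 12, 6, 14, 22 and 4 in those alternatives in the same order. Of all tested genes 48.3% passed in the 14 libraries, and 19.2%, 18.9%, 8.1%, 18.0%, 32.5% and 8.89% in those alternatives in that order. Of the nuclear copies 13 passed, with 12 to 13 when each library was left out, and 7 with the trend removed, 3 with the covariate, 5 without control set 1 and 6 in libraries over 4000000 counts. The difference in mitochondrial share was -1.73 percentage points, from -2.09 to -1.39 when each library was left out, -3.36 without control set 1, -2.93 without distal set 2, -1.18 without control set 2 and -1.13 without distal set 1. The cause of these changes was not tested. DESeq2 and upper-quartile scaling called 9 and 7 mitochondrial mRNAs. Upper-quartile scaling moved the median of all genes to 0.00, against -0.16 under TMM, and no mitochondrial mRNA changed direction with it.

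Some values crossed 0, all of them without a call. With the GC and length trend removed mt-Nd1 was at 0.35, mt-Nd2 at 0.33, mt-Atp8 at 0.88, mt-Nd4 at 0.16, mt-Nd5 at 0.03, mt-Nd6 at 0.01, mt-Cytb at 0.05, Tfam at 0.12 and Tfb2m at 0.18. With the covariate mt-Nd1 was at 0.34, mt-Nd2 at 0.33, mt-Co1 at 0.41, mt-Atp8 at 0.76, mt-Cytb at 0.03 and Tfb2m at 0.92. In libraries over 4000000 counts mt-Nd1 was at 0.01, mt-Nd2 at 0.04 and mt-Atp8 at 0.04. mt-Atp8 was at 0.03 with limma-voom and ranged from -0.38 to 0.05 when each library was left out. The rRNA share of mitochondrial counts, which rests on 3 counts, differed by 8.67e-05 percentage points, by -5.22e-05 without distal set 2, and by -5.22e-05 to 0.000139 when each library was left out.

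With the replicate number as a block 8 mitochondrial mRNAs passed and mt-Atp8 was at 0.09. Deviations of same-numbered libraries correlated at -0.017 to 0.11. Only for distal libraries 2 and 3 was the control library of the same number the best match. Low correlations cannot exclude a pairing, and the labels do not say that the numbers pair libraries. These numbers are those of the titles, and the other numbers in the descriptions were not tried. Depth limits the low genes: mt-Nd4l had 1 to 6 counts per distal library, and sets and regions cannot be told apart.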
